A study of Mus musculus with 2 samples.

Results

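The genes described here were 10 mouse transcription regulators, namely 6 Krüppel-like factors (Klf2, Klf4, Klf6, Klf7, Klf10 and Klf13), 3 early growth response factors (Egr1, Egr2 and Egr3), and Nab2, a protein that binds EGR factors and represses their activity. They were taken by name as members of these families, out of 15169 genes with a measured locus in the series. Of the 10 genes, 9 had a locus in at least 1 library and all of these 9 reached 1 TPM (transcripts counted per length and library size) in a library. Egr3 had no locus in either library.

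The study followed osteoclast formation, and RNA-seq was performed on WT bone marrow cells cultured in alpha-minimum essential medium. The cells received either M-CSF (library M), the growth factor that maintains macrophages and osteoclast precursors, or M-CSF and RANKL (library MR), the cytokine that turns these precursors into osteoclasts. The dose was 20 ng/mL for M-CSF and 100 ng/mL for RANKL. The labels give 2 days with M-CSF followed by 2 days in which RANKL was added, the culture method in the study's methods text gives a longer time with RANKL, and the harvest day of the RNA-seq cultures is not named. The strain, age and sex of the mice and the number of mice behind each culture are not given in the labels. Each condition was 1 library, so that there was no replicate, no test was possible, and every difference below describes these libraries and not the conditions.

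KLF and EGR proteins bind DNA through C2H2 zinc fingers close to the C-terminus. The KLF factors recognize GC-rich or CACCC elements, and different members activate or repress transcription. They control proliferation, quiescence and terminal differentiation in many tissues, including blood. The EGR genes are immediate early genes, which are transcribed within minutes of growth factor signalling through ERK kinases and serum response factor (SRF), and NAB proteins are themselves made in response to EGR factors and limit them. In monocytes, Egr1, Egr2 and Klf4 are known for their part in macrophage differentiation.

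The level of each gene was the summed TPM of the loci that StringTie assembled within its exons on its strand. Values are thus per length of the assembled stretch, which for some members was only part of the transcript. Ratios of MR to M are given as log2 of (TPM + 1), which understates the change of genes with low levels. A gene was called higher or lower when this ratio was above 1 or below -1. Brackets hold 95% counting intervals, which were based on read pairs estimated from FPKM and locus length and cover counting error only.

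The promoters of the members that were lower in MR, Klf6 and Klf2, are shown next to those of Klf4 and Egr2, which lay between the thresholds, because these windows differ in the elements they hold. From RefSeq sequences on GRCm38.p6, the 250 bases before the annotated start were examined for 7 of the 10 genes, in 11 windows. Each sequence runs 5′ to 3′ towards the gene, and capitals mark every match of the 8 motifs searched on both strands. The coordinates are chr13:5861239-5861488 on the plus strand for Klf6, chr8:72318812-72319061 on the plus strand for Klf2, chr4:55532476-55532725 on the minus strand for Klf4 and chr10:67537619-67537868 on the plus strand for Egr2.
Klf6: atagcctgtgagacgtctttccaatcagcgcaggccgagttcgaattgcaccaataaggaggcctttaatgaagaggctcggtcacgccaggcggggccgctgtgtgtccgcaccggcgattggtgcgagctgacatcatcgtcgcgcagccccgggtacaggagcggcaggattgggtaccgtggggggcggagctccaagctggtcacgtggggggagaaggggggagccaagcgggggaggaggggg
Klf2: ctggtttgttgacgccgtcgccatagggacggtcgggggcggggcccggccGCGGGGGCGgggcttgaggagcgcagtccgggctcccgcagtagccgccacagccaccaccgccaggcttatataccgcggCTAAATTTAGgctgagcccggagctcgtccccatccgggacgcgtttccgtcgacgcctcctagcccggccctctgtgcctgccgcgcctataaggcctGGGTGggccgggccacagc
Klf4: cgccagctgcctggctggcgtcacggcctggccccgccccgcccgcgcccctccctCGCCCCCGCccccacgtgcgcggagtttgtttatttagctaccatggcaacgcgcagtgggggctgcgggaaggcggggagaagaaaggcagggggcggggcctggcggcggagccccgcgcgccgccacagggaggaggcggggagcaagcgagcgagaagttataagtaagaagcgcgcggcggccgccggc
Egr2: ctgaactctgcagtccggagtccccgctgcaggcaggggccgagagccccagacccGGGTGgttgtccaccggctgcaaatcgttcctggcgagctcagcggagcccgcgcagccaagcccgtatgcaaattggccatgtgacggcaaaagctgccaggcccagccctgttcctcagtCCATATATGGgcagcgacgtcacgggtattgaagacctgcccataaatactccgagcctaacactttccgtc

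The Klf2 window held a MEF2 site, the element bound by the MEF2 factors that act downstream of the kinase ERK5, at 118 to 109 bases before the start. It also held the EGR element GCGGGGGCG at 199 to 191 bases before the start and 1 CACCC element. The same EGR element lay in the Klf4 window at 194 to 186 bases, on the opposite strand. The Egr2 window held 1 CACCC element and a CArG box, the element bound by SRF, at 72 to 63 bases before the start. None of the searched motifs was found in the Klf6 window, which says only that these letters are not in these 250 bases.

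Among 32851 promoter windows of the same length, 52% held CACCC, 2.57% held GCGGGGGCG, 0.536% held the other EGR element GCGTGGGCG, 1.47% held a CArG box and 2.92% held a MEF2 site. The AP-1 element, searched as TGACTCA or TGAGTCA, was in 4.46% of the windows, TGACGTCA in 1.55% and TATAAA in 12.4%, and a MEF2 site can contain TATAAA. Egr2 had 5 windows. Those before the starts at 67537869, 67537870 and 67537930 overlap and share the printed CArG box, the window before 67537566 held another CArG box, and the window before 67535499 held none of the motifs. In the remaining member windows, Klf7 had 3 CACCC elements, and Klf13 and Nab2 had 1 each. The GC content was 64.8% for Klf6, 71.2% for Klf2, 74.0% for Klf4 and 61.6% for Egr2, all above the median of 52.4% over all windows. No window of Klf10, Egr1 or Egr3 was examined, so that nothing is known here of the motifs before these genes. The matches found describe the sequence and not binding.

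Klf6 and Klf2 were lower, and Egr1 and Klf13 higher, in the culture with RANKL, but the value of Klf13 rests on which strand its reads were placed on. The other 5 measured members, namely Klf4, Klf7, Klf10, Egr2 and Nab2, lay between the thresholds. Over all 13464 genes that had their own locus and reached 1 TPM in a library, 2860 (21.2%) were called higher and 1784 (13.3%) lower. Against this background, 2 of 9 members higher and 2 of 9 lower is close to what all genes showed. The median log2 ratio was 0.51 over the members and 0.21 over all genes. The order of these medians depends on how loci are counted, since they were 0.14 and 0.20 with loci of either strand, and -0.09 and 0.15 with the TPM spread over the longest transcript. In bulk RNA, fewer cells of a type and less RNA per cell cannot be told apart for any of these values.

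**Figure D1:**
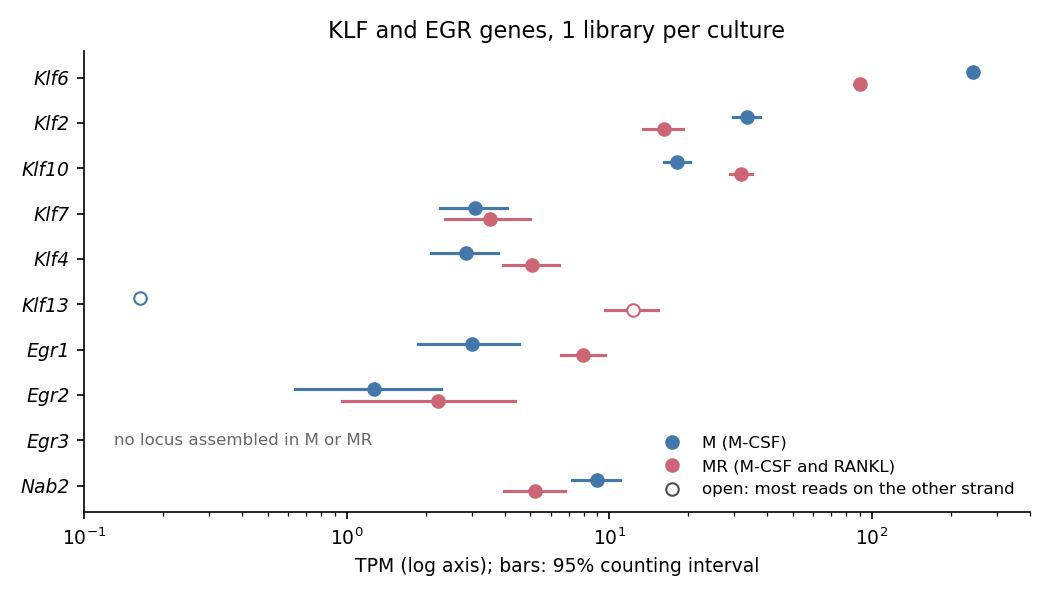
Level of each gene in TPM on a log axis, with 1 point for the library with M-CSF (M) and 1 for the library with M-CSF and RANKL (MR), and bars for the 95% counting interval. Klf6 was the most abundant member in both libraries, at 243.7 TPM in M and 89.91 TPM in MR, and the open points of Klf13 mark values for which most reads lay on the other strand.

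Klf6, a broadly expressed activator known from inflammatory gene expression in macrophages, was measured at 243.7 TPM in M (237.4 to 250.1) and 89.91 TPM in MR (85.62 to 94.35). The level in M was 2.71 times that in MR (2.566 to 2.863), a log2 ratio of -1.43 (-1.51 to -1.35). It was the best measured member, with about 5664 read pairs in M against 1650 in MR. It stood at percentile 95.5 of the genes with their own locus in M and at percentile 87.1 in MR. The gene lies at chr13:5861482-5870394 on the plus strand, and its locus covered 98.3% of the longest transcript in both libraries. The locus began 14 bases inside an annotated start in M and 13 bases inside it in MR, so that Klf6 was measured over nearly the same bases in M and MR.

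Klf2, which is known to keep T cells and monocytes quiescent and is induced by blood flow in endothelium, fell from 33.43 TPM (29.64 to 37.57) to 16.12 TPM (13.44 to 19.18). The log2 ratio was -1.01 (-1.30 to -0.72), with about 282 read pairs in M against 127 in MR. The counting interval contains the threshold of -1, so that the position of Klf2 relative to the threshold was not resolved at this depth, whereas its direction was the same throughout the interval. The gene lies at chr8:72319033-72321656 on the plus strand. The assembled locus covered 81.4% of the transcript in M and 96.2% in MR, and when the TPM was spread over the longest transcript the ratio was -0.77, which is no longer past the threshold.

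Klf10, the factor first described as an early gene induced by TGF-β, was at 18.18 TPM (16.21 to 20.33) in M and 31.74 TPM (28.79 to 34.91) in MR. Its log2 ratio was 0.77 (0.57 to 0.97), so that the level in MR was higher beyond counting error and below the threshold. It rested on about 308 read pairs in M against 423 in MR. The gene lies at chr15:38291463-38300706 on the minus strand, and its locus covered 99.4% of the longest transcript in M and 99.0% in MR. Klf2 was above Klf10 in M and below it in MR, and the counting intervals of the 2 genes did not overlap in either library.

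Klf4, known as a reprogramming factor and as a regulator of monocyte differentiation, was at 2.851 TPM (2.102 to 3.78) in M and 5.092 TPM (3.954 to 6.455) in MR. The level in MR was 1.786 times that in M (1.237 to 2.579), a log2 ratio of 0.66 (0.24 to 1.08). About 48 and 68 read pairs stood behind these values, and the locus covered the whole longest transcript in both libraries. Its extent and values equal those of the entry that carries the name Klf4, which on this stretch has the same position in both annotations. Klf4 lies at chr4:55527143-55532466 on the minus strand. The intervals of Klf4 in the libraries did not overlap, but the interval of the ratio reaches the threshold of 1.

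Klf7, known from the development of neurons, was at 3.074 TPM (2.274 to 4.064) in M and 3.501 TPM (2.362 to 4.998) in MR. The log2 ratio was 0.14 (-0.35 to 0.64), and a difference was not detectable at this depth. The gene lies at chr1:64029447-64122282 on the minus strand. The loci covered only 36.9% of its longest transcript in M and 25.1% in MR, and with the TPM spread over that transcript the ratio was -0.18.

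**Figure D2:**
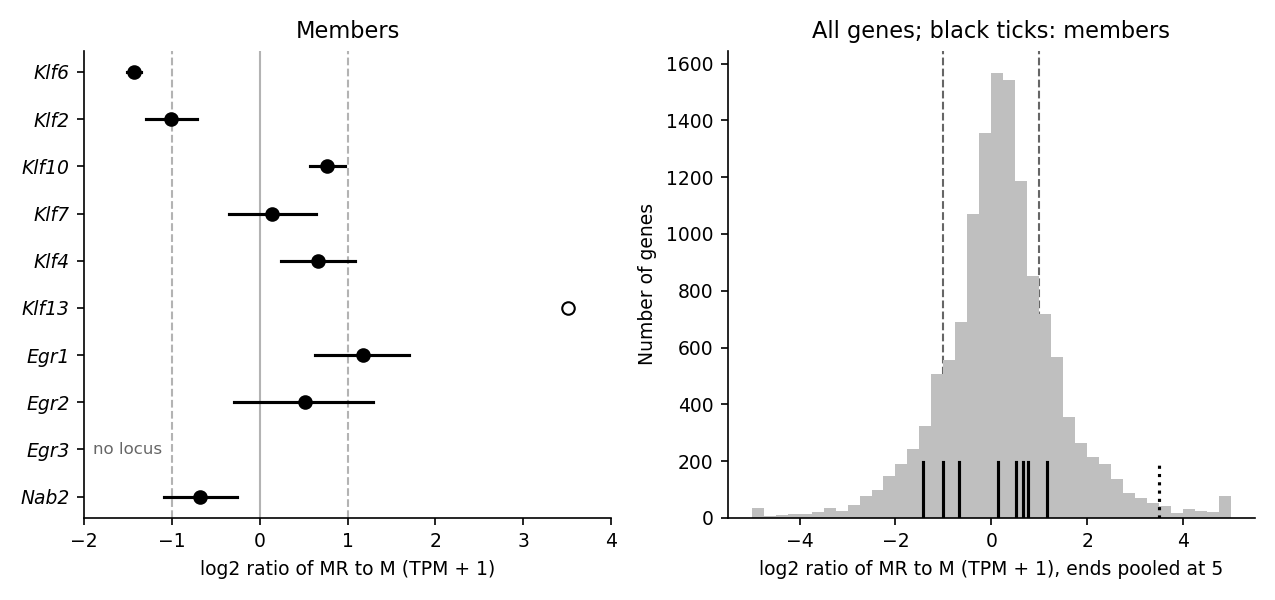
Log2 ratio of MR to M on TPM + 1 for each member with its 95% counting interval (left), and the number of genes at each ratio for all 13464 genes with black ticks for the members (right), where dashed lines mark -1 and 1. Klf6 at -1.43 was the lowest member, the intervals of Klf2, Klf4, Egr1, Egr2 and Nab2 cross a dashed line, and the open point and dotted tick of Klf13 stand at 3.51.

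Klf13, known as a factor that T lymphocytes use for late expression of the chemokine gene Ccl5, was at 0.1639 TPM in M and 12.27 TPM (9.631 to 15.4) in MR on its own strand. This gave a log2 ratio of 3.51, the largest among the members, with an estimate of 0 read pairs in M against 74 in MR. Most of the signal over the exons of Klf13 was nevertheless listed on the other strand. The gene lies at chr7:63886351-63938915 on the minus strand, with a last exon of 5447 bases (chr7:63886351-63891797) and a first exon of 949 bases (chr7:63937967-63938915) that together make up its longest transcript of 6396 bases.

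In M, 2 plus-strand loci matched these exons almost base for base. The larger lay at chr7:63886360-63891794 with 32.77 TPM and held 5435 bases of the last exon, and the smaller at chr7:63937969-63938978 with 21.91 TPM and held 947 bases of the first exon. Together they had 54.68 TPM, covered 99.8% of the longest transcript and corresponded to about 1113 read pairs. The locus behind the value of 0.1639 TPM (chr7:63934556-63937958) covered an exon of 934 bases that is not part of the longest transcript, and none of the bases of that transcript. Its extent and TPM are those of the entry for another annotated gene, Gm45212, so that the value of Klf13 in M on its own strand is not separate from that gene. The same locus was at 0.1345 TPM in MR.

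In MR, 1 plus-strand locus (chr7:63886454-63891801) had 29.94 TPM, covered 83.6% of the longest transcript and corresponded to about 707 read pairs. A minus-strand locus (chr7:63891346-63938901) began 14 bases inside the annotated start, had 12.13 TPM and covered 21.7% of the longest transcript. For that locus the listed coverage was 1.316, whereas its FPKM corresponds to a coverage of 16.08. The estimate of 74 read pairs and the interval of the Klf13 level in MR rest on the FPKM. The listed coverage would give fewer pairs. When loci of either strand were summed, Klf13 was at 54.84 TPM in M and 42.21 TPM in MR, and the log2 ratio was -0.37, the reverse of the ratio on its own strand. With coverage per aligned Gb in place of TPM the ratio was 0.48. Whether the library kit keeps strand is not stated in the sources used here, and without it the reads of Klf13 and of an antisense transcript cannot be told apart. The sign of the Klf13 difference is therefore not settled by these files.

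**Figure D3:**
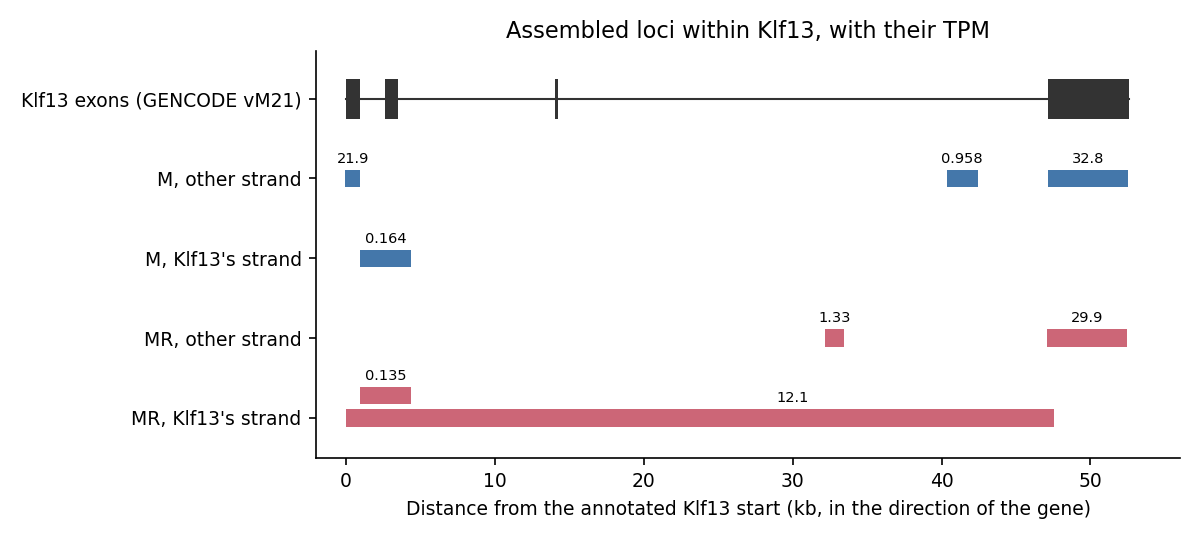
Exons of Klf13 and the loci assembled within the gene in each library and on each strand, drawn to scale by distance from the annotated start in kb, with the TPM of each locus above it. The blocks at 21.9 and 32.8 TPM in M and at 29.9 TPM in MR lie over the first and the last exon but on the other strand, and the block at 12.1 TPM on the strand of Klf13 appears in MR alone.

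Egr1, the immediate early gene that stands for the family in most assays of growth factor response, was at 2.994 TPM (1.876 to 4.533) in M and 7.968 TPM (6.536 to 9.62) in MR. The level in MR was 2.662 times that in M (1.689 to 4.193), a log2 ratio of 1.17 (0.63 to 1.70). The intervals of the libraries did not overlap, and the interval of the ratio contains the threshold of 1. Egr1 lies at chr18:34859823-34864984 on the plus strand. Its locus began 24 bases inside an annotated start in M and 36 bases inside it in MR, but it covered 29.4% of the transcript in M, with about 22 read pairs, and 68.1% in MR, with about 108. On FPKM, at 1.385 in M and 3.541 in MR, the ratio was 0.93, which ends the call. The pseudocount of 1 weighs more on these lower values than on TPM. With the TPM spread over the longest transcript the ratio was 1.77.

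Egr2, known for its part in hindbrain patterning and in myelin formation, was at 1.274 TPM (0.6359 to 2.279) in M and 2.228 TPM (0.9618 to 4.389) in MR. The log2 ratio was 0.51 (-0.29 to 1.29), with only about 11 and 8 read pairs, so that no difference was detectable at this depth. The gene lies at chr10:67535475-67542188 on the plus strand. The locus covered 53.0% of the longest transcript in M and 25.9% in MR, and with the TPM spread over it the ratio was -0.09. In MR the locus began 4 bases before the annotated start at position 67537869, the start whose promoter window with the CArG box is printed above.

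Egr3, which is known from muscle spindles and from lymphocytes and lies at chr14:70077203-70082614 on the plus strand, had no assembled locus in M or in MR. A locus needs several overlapping reads to be assembled, so that Egr3 was not detected at this depth, which does not show its absence. Member transcripts share little sequence. The longest exact run shared by the transcripts of any pair among the 45 pairs of members was 44 bases, between Egr2 and Egr3, the median was 14 bases, and the reads were 150 bases long.

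Nab2, the corepressor, was at 8.958 TPM (7.23 to 10.97) in M and 5.228 TPM (3.96 to 6.773) in MR. The log2 ratio was -0.68 (-1.09 to -0.26), and the level in M was 1.713 times that in MR (1.234 to 2.379). On TPM per assembled stretch, Egr1 and Nab2 thus differed between the libraries in opposite directions beyond counting error. Nab2 was above Egr1 in M and below it in MR, where their intervals overlap. Nab2 lies at chr10:127660918-127668568 on the minus strand, and its locus covered 71.6% of the longest transcript in M and 95.9% in MR. With the TPM spread over that transcript, Nab2 was at 6.415 TPM in M and 5.011 TPM in MR. The ratio was then -0.30, without a counting interval, so that a difference beyond counting error was shown only per assembled stretch.

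Klf13 was left out of the order of levels, since it stood at 0.1639 TPM in M and 12.27 TPM in MR on its own strand, and at 54.84 and 42.21 TPM on either strand, which is above all members but Klf6. In M, the others ran from Klf6 through Klf2, Klf10 and Nab2 to a group of Klf7, Egr1 and Klf4, whose counting intervals overlap, and then to Egr2, whose interval overlaps those of the group. In MR, the order was Klf6, Klf10, Klf2, Egr1, Nab2, Klf4, Klf7 and Egr2. There the intervals of neighbours overlap for each step from Egr1 down to Egr2. These orders rest on TPM per assembled stretch, and the loci of some members held only part of the transcript. With the TPM spread over the longest transcript, Klf4 was at 2.851 TPM in M, Klf7 at 1.134 and Egr1 at 0.88. In MR, Egr1 was then at 5.427 TPM, Klf4 at 5.092, Nab2 at 5.011 and Klf7 at 0.8778.

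**Figure D4:**
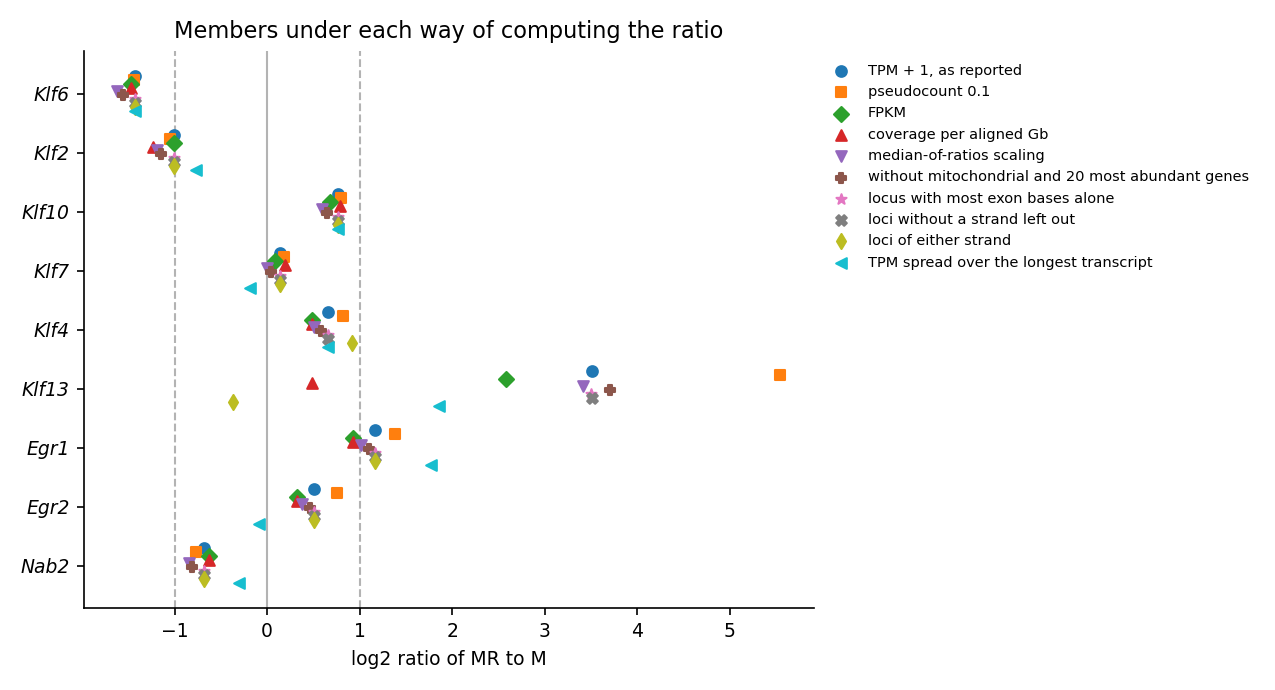
Log2 ratio of MR to M for each member as reported and under 9 other ways of computing it, with dashed lines at -1 and 1. The points of Klf6 stay between -1.62 and -1.43, those of Egr1 run from 0.93 to 1.77, and those of Klf13 run from -0.37 to 5.55.

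The cultures differed widely in cell type markers. All 10 osteoclast markers were higher in MR, where their summed level was 25318 TPM against 151.7 TPM in M, with Oscar, Dcstamp, Ocstamp and Calcr listed at 0 in M. Of 10 macrophage markers, 5 were lower and 0 higher, against 13.3% and 21.2% of all genes. The macrophage markers summed to 21917 TPM in M and 8080 TPM in MR. The 7 neutrophil markers summed to 1187 TPM in M and 804.9 TPM in MR. Klf2 is also known from endothelial cells and T cells. The 5 endothelial markers summed to 42 TPM in M and 51.37 TPM in MR with Emcn at 0 in both, and the 6 lymphoid markers to 9.234 and 7.036 TPM with Cd3e and Cd3g at 0 in both. The 5 stromal markers summed to 19 and 22.09 TPM, and the 5 erythroid markers to 5.648 and 3.487 TPM with 2 of them at 0 in both. The part of cell composition in the values of the KLF and EGR genes was not tested.

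The lists in this paragraph are to be read against all genes, of which 21.2% were higher and 13.3% lower. Among 11 further KLF genes, 5 reached 1 TPM and 6 had no locus in either library. Klf8, a repressor, was the only one past the threshold, at 1.666 TPM in M and 4.483 TPM in MR with a log2 ratio of 1.04, and the median ratio was 0.20. Among 9 SP genes, which bind the same GC-rich elements as KLF factors, 4 reached 1 TPM. Sp1, the widely expressed member, was at 32.24 TPM in M and 73.15 TPM in MR with a ratio of 1.16, 0 were lower, and the median was -0.18. In the list of Egr4, Wt1 and Nab1, Nab1 alone had a locus, and this other NAB corepressor was at 41.9 TPM in M and 39.54 TPM in MR. Nab1 was thus more abundant than Nab2 in both libraries, and its ratio of -0.08 was close to 0.

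Upstream of the EGR genes, 17 of 18 genes of the ERK pathway and of SRF reached 1 TPM, of which 3 were higher and 0 lower, against 21.2% and 13.3% of all genes, with a median of -0.25. The share of higher genes was thus near that of all genes. Dusp4, a phosphatase that inactivates ERK, was at 5.942 TPM in M and 135.5 TPM in MR, a log2 ratio of 4.30. Spry1, an inhibitor of receptor tyrosine kinase signalling, was at 1.104 and 27.34 TPM, a ratio of 3.75, and Dusp5, a nuclear ERK phosphatase, was at 1.95 and 5.441 TPM, a ratio of 1.13. The remaining 14 genes, among them the kinases and SRF itself, lay between the thresholds. These included other inhibitors of the pathway, Dusp6 at 21.22 TPM in M and 14.08 TPM in MR (-0.56) and Spry2 at 15.55 and 9.314 TPM (-0.68).

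Upstream of Klf2, all 8 genes of the ERK5 and MEF2 list reached 1 TPM and their median was -0.46. Of them 1 was higher and 1 lower, against 21.2% and 13.3% of all genes. Map2k5, the kinase that activates ERK5, was higher at 52.61 TPM in MR against 23.71 TPM in M, a log2 ratio of 1.12. Mef2c, one of the MEF2 factors, was lower at 3.119 TPM in MR against 9.163 TPM in M, a ratio of -1.30. The other 6 lay between the thresholds.

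The other immediate early genes did not move as a group. Of 18 genes, 15 reached 1 TPM, and 4 were higher and 4 lower, against the same shares of all genes. Their median was -0.36. Myc, which drives growth and biosynthesis, was at 3.922 TPM in M and 40.14 TPM in MR (3.06 on the log2 scale). Fos was at 54.96 and 211.5 TPM (1.92), and Junb at 111.2 and 309.2 TPM (1.47), and both encode AP-1 subunits. Socs3, an inhibitor of cytokine signalling, was listed at 0 in M and at 1.086 TPM in MR. In the other direction, Atf3, a stress-induced factor, was at 408.3 TPM in M and 44.77 TPM in MR (-3.16). Dusp1, a phosphatase of p38 and JNK, was at 87.09 and 17.56 TPM (-2.25), Nfkbiz, an NF-κB cofactor, at 20.76 and 3.818 TPM (-2.17), and Ier3 at 18.72 and 7.273 TPM (-1.25). The remaining 7 of the 15 genes lay between the thresholds. With 1 ratio per gene, no member was matched to a gene of this list.

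Among 10 corepressors and ubiquitin ligases that act with or on KLF and EGR proteins, all reached 1 TPM and the median was 0.15. Of them 2 were higher and 1 lower, which was near the 21.2% higher and 13.3% lower of all genes. Smurf1, a ubiquitin ligase, was at 10.61 TPM in M and 60.07 TPM in MR (2.39 on the log2 scale), and Hdac2, a histone deacetylase, at 30.85 and 71.39 TPM (1.18). Wwp1, a ligase known to bind KLF proteins, was at 64.03 TPM in M and 18.86 TPM in MR (-1.71). The ligases on this list thus differed in direction.

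Of 16 genes that are known as targets of KLF or EGR factors in other cells, 15 reached 1 TPM, and 4 were higher and 6 lower, against 21.2% and 13.3% of all genes. Their median was -0.85. S1pr1, the receptor for sphingosine-1-phosphate, was lower at 2.767 TPM in MR against 15.55 TPM in M (-2.14). Itgb7, an integrin subunit, was higher at 123.5 TPM in MR against 26.26 TPM in M (2.19). Tnf, the inflammatory cytokine, was at 43.36 TPM in M and 7.105 TPM in MR (-2.45), Csf1, which encodes M-CSF, at 11.92 and 3.06 TPM (-1.67) and Id2, an inhibitor of helix-loop-helix factors, at 137.5 and 43.24 TPM (-1.65). The growth factor genes Pdgfb and Pdgfa were higher, Pdgfb at 10.61 TPM in M and 186.6 TPM in MR (4.01) and Pdgfa at 4.136 and 16.06 TPM (1.73). Cdkn1b, which encodes the cell cycle inhibitor p27, was at 17.51 and 59.71 TPM (1.71). With 2 libraries there is 1 ratio per gene, so that no relation between a factor and a target was computed.

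**Figure D5:**
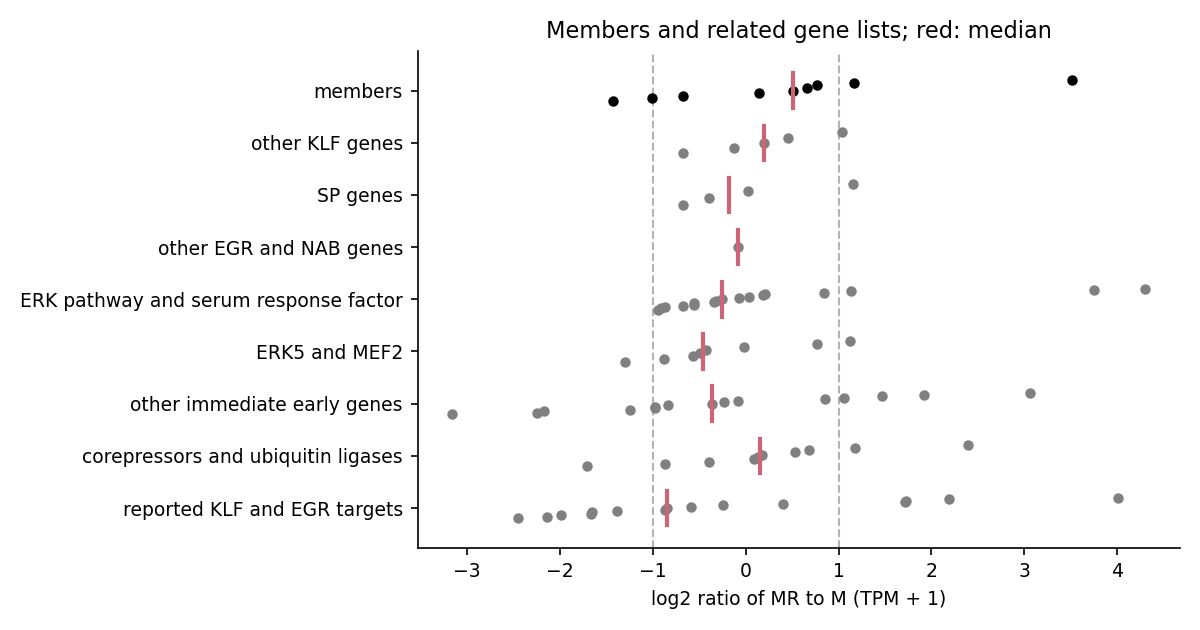
Log2 ratio of MR to M on TPM + 1 for the members (black) and for the genes of 8 related lists (grey), 1 point per gene that reached 1 TPM, with red bars at the median and dashed lines at -1 and 1. The known targets had a median of -0.85 and the members one of 0.51, which was 0.14 with loci of either strand.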

How the data were processed

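Total RNA was extracted with the RNeasy micro kit and libraries were prepared with the NEB Next Ultra RNA LP kit. Per the methods of the study and the submitters' processing notes, adaptors were removed with Trim Galore, paired reads of 150 bases were aligned to mm10 with HISAT2, and StringTie was run with GENCODE vM27, with FastQC and SAMtools also listed. Versions are not given in the sources used here. For each entry the authors deposited a coverage, which is the mean read depth per base and not normalized, and an FPKM. The deposited TPM is used as a score that is relative to the assembled loci, since the loci alone reach 1000000 per library and entries under gene names come on top. Those named entries hold GRCm39 positions and were not used, although at Klf4 and at Gm45212 within Klf13 an assembled locus repeats the extent and values of a named entry.

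From the deposited files, the 19422 loci of M and 19922 of MR were given to the GENCODE vM21 gene (GRCm38) with the most exon bases in them, at least 50, on a compatible strand. This placed 95.4% of the TPM in M and 96.9% in MR. In lists of genes, a gene whose locus held 50% or more of the exons of a further coding gene was kept, as for Sp3, whereas counts over all genes used the 14436 genes that had their own locus. Ratios used a pseudocount of 1 and a filter of at least 1 TPM in a library. Aligned bases, read from the ratio of coverage to FPKM, came to 3.63 Gb in M and 2.98 Gb in MR. Read pairs were estimated at 300 bases per pair, and 95% intervals are exact Poisson for levels and Wilson binomial for ratios.

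The members and lists were chosen with earlier results of these data known. All members are named, and of each list up to 5 genes per direction past the threshold, by size, with genes a result turns on, and a gene that meets this rule is not reported here. The gene assignment was tested on simulated loci that each spanned nearly a whole gene on its own strand. Partial loci and loci on the other strand were not simulated. Alternatives were a pseudocount of 0.1, FPKM, coverage per aligned Gb, median-of-ratios scaling, TPM rescaled after removal of mitochondrial and the 20 most abundant genes, the locus with most exon bases alone, loci without a strand left out, no filter, a filter of 10 TPM, a log2 threshold of 2, and genes with their own locus in both libraries. Loci of either strand, and TPM spread over the longest transcript, were added after seeing the data. Except under the pseudocount of 0.1, ratios kept a pseudocount of 1. It weighs more on FPKM and on coverage per aligned Gb, whose values are below TPM. Protein sequences were not analysed here. Scripts ran in Python 3.11.15 (matplotlib 3.10.9, scipy 1.17.1, pandas 2.3.3, numpy 2.4.6).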

Additional observations from a re-analysis of the deposited data

Results flagged for a closer look

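At Klf4 and Klf10, entries that the comparisons did not use had a higher level in MR than in M. A plus-strand locus of 1.213 TPM, given to the neighbouring gene Gm12511, had an extent that took in 24.3% of the exon bases of Klf4 in MR. No such locus was listed in M (0 TPM). Whether its reads lay on the exons of Klf4 cannot be told from its extent. An entry that carries the name Klf10, and that overlaps the gene but is shifted by 244 bases from it on GRCm38, was listed at 10.04 TPM in M and 17.56 TPM in MR, and it was not added to the locus of Klf10. Their part in the values of Klf4 and Klf10 was tested only for Klf4, where the ratio was 0.92 with loci of either strand against 0.66 on its own strand.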

How the results depend on the processing

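No paired analysis was possible because each condition was 1 library. For the same reason no replicate could be left out. Of 140 values recomputed under alternatives, 116 stayed within tolerance, 23 moved and 1 was reversed. The tolerance was the 95% counting interval for a member, a factor of 1.5 for a count, and the span between the medians of the members' interval bounds for their median, which takes in values on either side of 0. Klf13 has no interval, so that any shift of it counted as moved. The reversed value was Klf13, at -0.37 with loci of either strand. The number of members called higher was 2 as reported, 1 on FPKM, with a filter of 10 TPM, with a log2 threshold of 2 and with loci of either strand, and 0 on coverage per aligned Gb. The number called lower was 2 as reported, 0 with a log2 threshold of 2 and 1 with the TPM spread over the longest transcript. The shares of all genes also changed. They were 21.2% higher and 13.3% lower as reported, 15.3% and 10.1% on FPKM, and 15.7% and 10.1% on coverage per aligned Gb. On these 2 measures the pseudocount of 1 weighs more than on TPM, which draws ratios towards 0. With a filter of 10 TPM the shares were 18.4% and 11.3%, and with a log2 threshold of 2 they were 7.12% and 3.87%. Loci of either strand gave 21.1% and 13.2%, and TPM spread over the longest transcript gave 17.3% and 12%. Over all genes, 2860 higher and 1784 lower became 1601 and 983 with a filter of 10 TPM, 958 and 521 under a log2 threshold of 2, and 1795 and 1102 among genes with their own locus in both libraries, where fewer genes or calls were allowed by construction. Median-of-ratios scaling moved the median of all genes from 0.21 to 0.03, and under it Klf6 was at -1.62, Klf10 at 0.59 and Nab2 at -0.84. Klf6 was past the threshold in 9 of 9 alternatives, Klf2 in 8, Egr1 and Klf13 in 7, and Klf7 kept its sign in 7. The median of the members ranged from -0.09 with the TPM spread over the longest transcript to 0.76 with a pseudocount of 0.1. Depth limits Egr2, Egr1, Klf7, Klf4, Klf13 and Nab2 most, since at most 108 read pairs per library on the strand of the gene stood behind each.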
